A study of Mus musculus with 16 samples.

Results

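The entry of glucose into fat cells and its first steps were followed through 7 genes: the facilitative glucose transporters Slc2a1, Slc2a3 and Slc2a4, the hexokinases Hk1, Hk2 and Hk3, and Gpi1, the enzyme that turns glucose 6-phosphate into fructose 6-phosphate. They were found on the array by matching the RefSeq accession printed for each probe to a gene symbol. All 7 genes were found, with 12 probes of the 56605 on the array, where 22911 gene symbols could be named. RNA came from brown fat (BAT) and gonadal white fat (gWAT) of male mice labelled C57BL/6NCrSlc. Each tissue had 4 arrays of littermate controls and 4 of mice labelled Adipo-Pgam1 KO. The KO mice were Adipoq-Cre+: Pgam1 flox/flox and the controls, called wild-type in the labels, Adipoq-Cre-: Pgam1 flox/flox, so both carried the floxed alleles and were kept at 23 °C on normal chow. Cre was driven by the adiponectin promoter, which is active in adipocytes, so cells of the tissue in which that promoter is silent keep Pgam1. The mice were 16 weeks old, except KO replicate 4 in both tissues, labelled 14 weeks. No label says that the arrays of a group came from separate mice other than by their replicate numbers, so p-values measure the spread between these samples.

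Each value is the log2 of a probe's intensity over the 75th percentile of its array, so that 0 is the level of that percentile and each step of 1 is a doubling. Levels were not compared between probes, since each has its own efficiency. In bulk tissue, fewer cells of a type and less RNA per cell cannot be told apart. The 75th percentile itself was lower in the BAT control arrays (401 to 451) than in the other 3 groups (570 to 916). At most 62.2% of the probes on any array passed the scanner's test against background. There were 3 slides: 3 BAT control arrays on the first, the remaining BAT control with the 4 BAT KO arrays and 3 gWAT controls on the second, and the remaining gWAT control with the 4 gWAT KO arrays on the last. The targeted gene followed its label in BAT, where Pgam1 ranged from 7.82 to 8.07 in controls and from 6.03 to 6.43 in KO. It went against the label in gWAT, with 5.07 to 5.67 in controls and 5.95 to 6.50 where the label was Adipo-Pgam1 KO (limma, log2 change 0.95, adjusted p = 0.0139). Directions in gWAT are therefore those of the label and hold only if the label does. A second Pgam1 probe moved likewise. The changes of the 2 probes were -1.74 and -1.65 in BAT, and 0.95 and 1.02 in gWAT (limma over all probes). Which exons are floxed is not given in the sources used here, and why Pgam1 was higher in gWAT labelled KO was not tested.

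Glucose crosses the plasma membrane through the SLC2A (GLUT) carriers. GLUT1, the product of Slc2a1, serves basal uptake in most cells, GLUT3 (Slc2a3) is a high-affinity carrier best known from neurons, and GLUT4 (Slc2a4) is the carrier of muscle and fat that insulin brings from internal vesicles to the surface. Hexokinases then phosphorylate glucose and trap it in the cell. Hk1 is widespread and binds mitochondria, Hk2 is the main form of insulin-sensitive muscle and fat, and Hk3 is found mostly in myeloid blood cells. Brown fat is known for high glucose uptake, and Pgam1 acts further down the same pathway, where 3-phosphoglycerate becomes 2-phosphoglycerate.

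On all 16 arrays the brightest probe of every member cleared the scanner's background test. In BAT of Adipo-Pgam1 KO mice, Slc2a1, Hk1 and Hk3 rose and Slc2a4 fell, whereas Slc2a3, Hk2 and Gpi1 did not pass the test. In gWAT labelled Adipo-Pgam1 KO, Gpi1 and Hk1 rose and Slc2a3 fell, whereas Slc2a1, Slc2a4, Hk2 and Hk3 did not pass. Thus 3 of 7 members rose in BAT, against 27.5% of all 14280 genes tested there, and 1 of 7 fell, against 34.0%. In gWAT 2 of 7 rose, against 9.99% of 14149 genes, and 1 of 7 fell, against 7.85%. The median change of the members was -0.11 in BAT and 0.43 in gWAT on the log2 scale, beside -0.08 and 0.05 over all genes tested. The 4 KO and 4 control arrays did not overlap for 3 of 7 members in BAT (57.1% of all genes tested) and for 4 of 7 in gWAT (24.2%). The response itself differed between the depots (interaction in limma) for 5 of 7 members, where 48.3% of 14820 genes passed: Slc2a1, Slc2a3, Hk1, Hk3 and Gpi1. With slide as a block 2 members kept that call, Slc2a3 and Gpi1, and with scan day as a block 3 did, Slc2a1 as well.

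**Figure D1:**
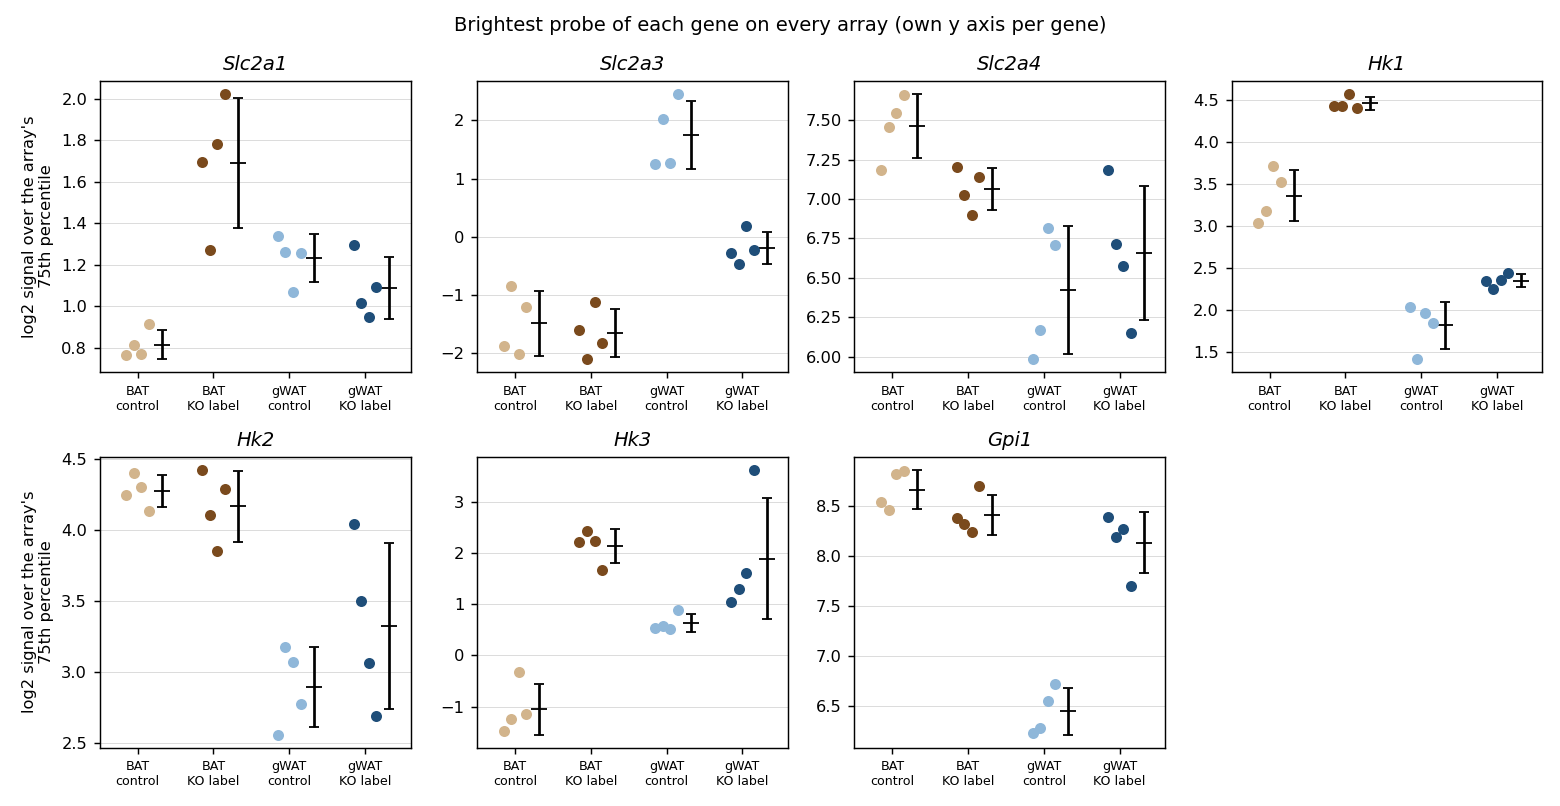
Log2 signal over the array's 75th percentile for the brightest probe of each of the 7 genes, by tissue and genotype label. Points are the 4 arrays of a group and bars the mean with SD; each gene has its own y axis, which does not start at a common level. Hk3 lies lowest in BAT controls and Slc2a3 highest in gWAT controls, and Gpi1 lies lowest in gWAT controls.

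Slc2a1, the basal carrier, read 0.77, 0.81, 0.77 and 0.91 on the 4 BAT control arrays and 1.69, 1.27, 1.78 and 2.02 on the 4 KO arrays. All KO arrays lay above all controls, with means of 0.82 ± 0.069 (SD, n = 4) and 1.69 ± 0.31 (SD, n = 4). The log2 change of 0.88 (limma, SE 0.15, adjusted p = 0.00117) is a ratio of 1.84. With Actb and Rplp0 as the scale, the change was 0.29 (adjusted p = 0.161), while the median of all genes there moved to -0.67. In gWAT, Slc2a1 read 1.34, 1.26, 1.07 and 1.26 in controls and 1.30, 1.02, 0.95 and 1.09 in the arrays labelled KO. These groups overlapped, and the change of -0.14 (95% interval -0.43 to 0.14, limma, adjusted p = 0.454) did not pass. The change in gWAT was 1.02 lower than in BAT (interaction, limma, SE 0.20, adjusted p = 0.000729), but the interaction did not pass with slide as a block (-0.95, adjusted p = 0.0538) or with Actb and Rplp0 as the scale (-0.49, adjusted p = 0.105). The depots stood in opposite order in the 2 genotypes: control BAT lay below control gWAT by 0.42 (limma, adjusted p = 0.0148), and KO BAT above gWAT labelled KO by 0.60 (adjusted p = 0.00262). Neither difference passed in every fit: the former is taken up with the depots, and the latter was 0.64 with slide as a block (adjusted p = 0.153) and 0.40 with Actb and Rplp0 as the scale (adjusted p = 0.0723).

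Slc2a4, the insulin-responsive carrier, read 7.18, 7.46, 7.55 and 7.66 in BAT controls and 7.20, 7.03, 6.90 and 7.14 in BAT of KO mice. The lowest control array lay just under the highest KO array, so the groups overlapped. The log2 change was -0.40 (limma, SE 0.13, adjusted p = 0.0241), a ratio of 0.760. This small fall depended on the scale: it was -0.07 after quantile normalization (adjusted p = 0.640) and turned to 0.14 with spike-in scaling (adjusted p = 0.554). The median of all genes was 0.45 with spike-in scaling. Also, 5 of the 8 fits that left out 1 array (control replicate 2, 3 or 4, or KO replicate 2 or 3) lost the call, at adjusted p values up to 0.0646. The plot of scaling choices shows the same gene moving across 0. In gWAT, Slc2a4 read 5.99, 6.17, 6.82 and 6.71 in controls and 7.18, 6.72, 6.58 and 6.15 in the arrays labelled KO. The change of 0.24 (95% interval -0.36 to 0.83, limma, adjusted p = 0.561) did not pass. The difference between the 2 changes was 0.63 (interaction, limma, adjusted p = 0.102), and 1.16 with Actb and Rplp0 as the scale (adjusted p = 0.00176).

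Slc2a3, the high-affinity carrier, had its highest values in gWAT controls. Its brighter probe read 1.26, 2.03, 1.27 and 2.45 in gWAT controls and -0.28, -0.46, 0.18 and -0.22 in the gWAT arrays labelled KO. Every array labelled KO lay below every control, with means of -0.20 ± 0.27 (SD, n = 4) and 1.75 ± 0.59 (SD, n = 4). The log2 change of -1.95 (limma, SE 0.29, adjusted p = 0.00509) is a ratio of 0.260, and it kept its direction and passed the test in every fit tested. In BAT the probe read -1.88, -0.84, -2.02 and -1.21 in controls and -1.59, -2.10, -1.12 and -1.82 in KO. The BAT groups overlapped, and the change of -0.17 (95% interval -0.85 to 0.51, limma, adjusted p = 0.642) did not pass. The response in gWAT was lower than in BAT by 1.77 (interaction, limma, SE 0.44, adjusted p = 0.00436). The second Slc2a3 probe, A_51_P384222, was well above background on none of the 16 arrays and did not enter the fit.

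**Figure D2:**
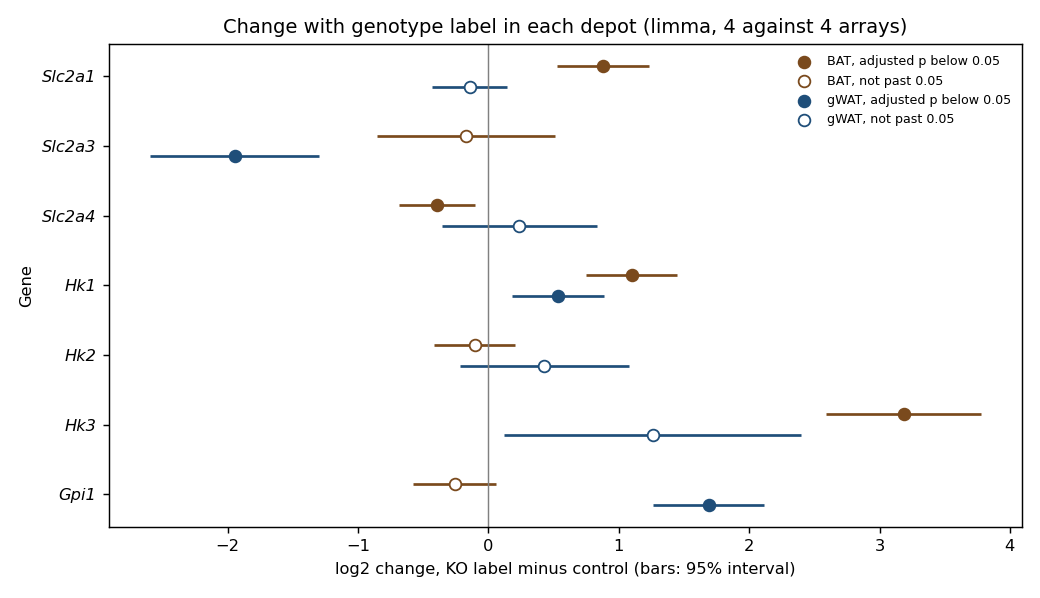
Log2 change of each gene, arrays labelled KO minus littermate controls, in BAT (brown) and gWAT (blue), with 95% intervals from limma on 4 against 4 arrays. Filled points passed an adjusted p of 0.05; Hk3 in BAT at 3.18 and Gpi1 in gWAT at 1.69 lie farthest to the right, and Slc2a3 in gWAT at -1.95 farthest to the left.

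Hk1, the widespread mitochondria-bound hexokinase, has 2 probes, which the files name by different RefSeq transcripts. The probe A_55_P2027999, named by NM_001146100, was well above background on all 16 arrays. It read 3.04, 3.19, 3.71 and 3.52 in BAT controls and 4.44, 4.43, 4.57 and 4.41 in BAT of KO mice. All KO arrays lay above all controls, and the KO arrays lay within 0.16 of each other. The log2 change was 1.10 (limma, SE 0.15, adjusted p = 0.000319), a ratio of 2.14, and it passed in every fit tried, between 0.51 with Actb and Rplp0 scaling and 1.63 with spike-in scaling. In gWAT the same probe read 2.04, 1.42, 1.97 and 1.84 in controls and 2.34, 2.25, 2.36 and 2.45 in the arrays labelled KO. Here too the groups did not overlap, with a smaller change of 0.53 (limma, SE 0.16, adjusted p = 0.0456), a ratio of 1.45. That call lay at the threshold: 7 of the 8 fits that left out 1 array, all but the one without control replicate 1, lost it, at adjusted p values up to 0.108, and so did slide as a block (0.51, adjusted p = 0.353). Control replicate 1 had the highest Hk1 value of its group. It also had the highest mean of 8 testis genes there, -1.11, against -5.22 to -4.49 on the other gWAT controls. On the gWAT arrays labelled KO that mean lay between -5.76 and -4.79. Of the 8 genes 3 were well above background on all 4 gWAT control arrays, and the part of testis RNA was not tested. The Hk1 change was lower in gWAT than in BAT by 0.56 (interaction, limma, SE 0.22, adjusted p = 0.0440), a call that 12 of 16 fits without 1 array lost. It held in the fits without BAT control replicate 3 or 4, gWAT control replicate 2 or gWAT replicate 4 labelled KO, and with Actb and Rplp0 scaling the difference was -0.031 (adjusted p = 0.927).

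The other Hk1 probe, A_55_P2647528, named by NM_010438, was near background throughout. It was well above background on 0 of 4 BAT control arrays, 2 of 4 BAT KO arrays, 1 of 4 gWAT control arrays and 2 of 4 gWAT arrays labelled KO, and in no group on all 4. Its values ran from -5.62 to -3.78 in BAT and from -5.02 to -4.10 in gWAT, and the genotypes overlapped in both tissues (two-sided exact permutation test, n = 4 against 4, p = 0.457 in BAT and 0.0571 in gWAT). It did not enter the fit. The results for Hk1 therefore rest on 1 probe. Where either probe lies in the transcript was not analysed here, since the files hold no probe sequences.

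Hk2, the hexokinase of insulin-sensitive tissues, read 4.25, 4.41, 4.30 and 4.13 in BAT controls and 4.42, 4.11, 3.85 and 4.29 in BAT of KO mice. The groups overlapped and the log2 change was -0.11 (95% interval -0.42 to 0.21, limma, adjusted p = 0.528). With Actb and Rplp0 scaling it was -0.70 (adjusted p = 0.00591) and with spike-in scaling 0.43 (adjusted p = 0.0618). The median of all genes moved to -0.67 and 0.45 there, so Hk2 stayed close to that median, and no direction can be given. In gWAT, Hk2 read 2.56, 3.18, 3.07 and 2.78 in controls and 4.04, 3.50, 3.07 and 2.69 in the arrays labelled KO. The change of 0.43 (95% interval -0.22 to 1.08, limma, adjusted p = 0.322) did not pass. The skeletal muscle markers, a tissue that also uses Hk2 and Slc2a4, were uneven in BAT of KO mice: the mean of 8 such genes, of which 4 were well above background on all 4 BAT control arrays, was 3.25 on KO replicate 1 and 0.19 on replicate 3, against -3.72 and -3.35 on the other KO arrays and -4.52 to -3.90 in BAT controls. KO replicate 1 had the highest and replicate 3 the lowest Hk2 and Slc2a4 values of their group, and the part of muscle RNA in them was not tested. Without KO replicate 1 the BAT change of Slc2a4 was -0.44 (limma, adjusted p = 0.0262), and without KO replicate 3 it was -0.34 (adjusted p = 0.0646).

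Hk3, the hexokinase of myeloid cells, moved most among the members in BAT. Its brighter probe, A_66_P127452, read -1.48, -1.24, -0.33 and -1.14 in BAT controls and 2.21, 2.43, 2.23 and 1.67 in KO. The groups were far apart, with means of -1.05 ± 0.50 (SD, n = 4) and 2.14 ± 0.33 (SD, n = 4). The log2 change of 3.18 (limma, SE 0.26, adjusted p = 2.44e-05) is a ratio of 9.09, and all alternatives lay between 2.59 and 3.72. The other probe, A_52_P586004, cleared background on only 2 of the BAT controls but on every KO array, and entered the fit through the latter; it read -4.11 to -2.61 in controls and -0.75 to 0.09 in KO. In gWAT the brighter probe read 0.54, 0.57, 0.52 and 0.89 in controls and 1.04, 1.29, 1.61 and 3.62 in the arrays labelled KO. All arrays labelled KO lay above the controls, but the change of 1.26 (SE 0.50, limma, adjusted p = 0.112) did not pass. The gWAT groups of the other probe overlapped, at -1.90 to -0.55 in controls and -1.25 to 1.56 where the label was KO. Replicate 4, the 14-week sample, stood apart, and without it the change was 0.68 (limma, adjusted p = 0.0307). The response was lower in gWAT than in BAT by 1.92 (interaction, limma, SE 0.61, adjusted p = 0.0179). This interaction did not pass with slide as a block (-2.28, adjusted p = 0.130), scan day as a block (-2.18, adjusted p = 0.0611) or Actb and Rplp0 as the scale (-1.39, adjusted p = 0.0889).

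Macrophage markers moved with Hk3. The mean of 12 macrophage genes, among them Adgre1, Cd68 and Csf1r, lay between 0.83 and 1.74 in BAT controls and between 3.55 and 3.90 in BAT of KO mice. Of the 12 genes 11 rose there while none fell, beside 27.5% and 34.0% of all genes. The gWAT controls spanned 2.54 to 3.07 and the gWAT arrays labelled KO 2.98 to 4.43, and 2 of 12 genes rose, beside 9.99% of all genes. All 12 were well above background on every array in 3 of the groups, and 11 were in BAT controls, where Itgax was so on 2 of 4 arrays. Itgax thus entered the BAT fit only through the KO arrays. The BAT control with the highest Hk3, replicate 3, also had the highest macrophage mean of its group, and gWAT replicate 4 labelled KO had the highest of all 16 arrays. Of 7 neutrophil genes on the array, 2, Cxcr2 and Ngp, were above background on no array, and the list mean overlapped between the groups (-3.33 to -2.01 in BAT controls, -3.30 to -2.29 in KO). The part of macrophage number in the Hk3 values was not tested.

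**Figure D3:**
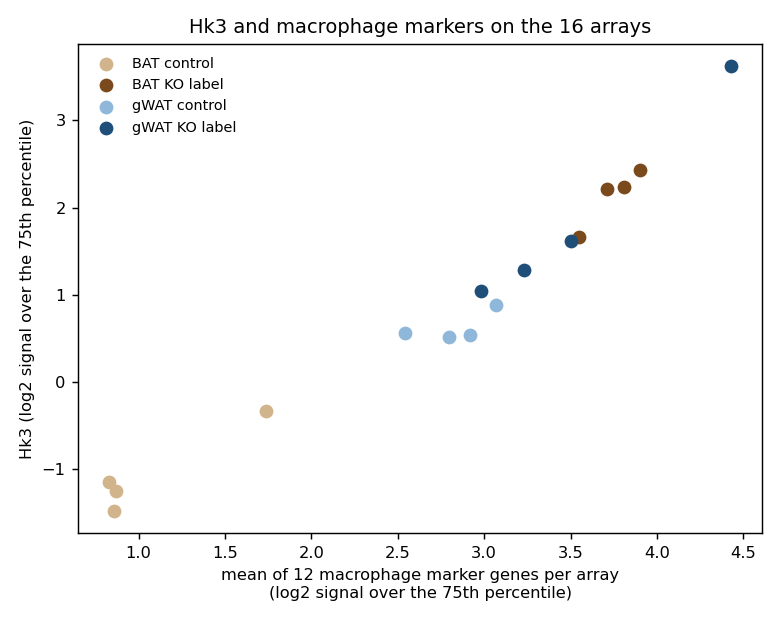
Hk3 signal against the mean of 12 macrophage marker genes on each of the 16 arrays, both as log2 signal over the 75th percentile, coloured by group. BAT controls lie at the lower left, BAT of KO mice at the upper right, and replicate 4 of the gWAT arrays labelled KO is the highest point on both axes (4.43 and 3.62).

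Gpi1, which follows hexokinase, separated the gWAT groups. Its brightest probe, A_55_P2022434, read 6.23, 6.28, 6.55 and 6.72 in gWAT controls and 8.39, 8.19, 8.27 and 7.70 in the arrays labelled KO. There was no overlap, and the log2 change of 1.69 (limma, SE 0.19, adjusted p = 0.00198) is a ratio of 3.22. The other probes, A_55_P2030433 and A_66_P122536, rose by 1.64 and 2.12 (limma over all probes, adjusted p = 0.00144 and 0.000943). With slide as a block, the change of the brightest probe was 1.41 (adjusted p = 0.0631), where 184 genes in all passed. In BAT, Gpi1 read 8.54, 8.46, 8.82 and 8.85 in controls and 8.38, 8.32, 8.24 and 8.70 in KO, with overlap. The BAT change of -0.26 (95% interval -0.58 to 0.06, limma, adjusted p = 0.140) fell short of the threshold. Its sign followed the scale, from -0.85 with Actb and Rplp0 (adjusted p = 0.000967) to 0.42 after quantile normalization (adjusted p = 0.00681). The medians of all genes were -0.67 and 0.02 there. The response was higher in gWAT than in BAT by 1.95 (interaction, limma, SE 0.24, adjusted p = 2.97e-05), and by 1.02 after quantile normalization, where it also passed.

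**Figure D4:**
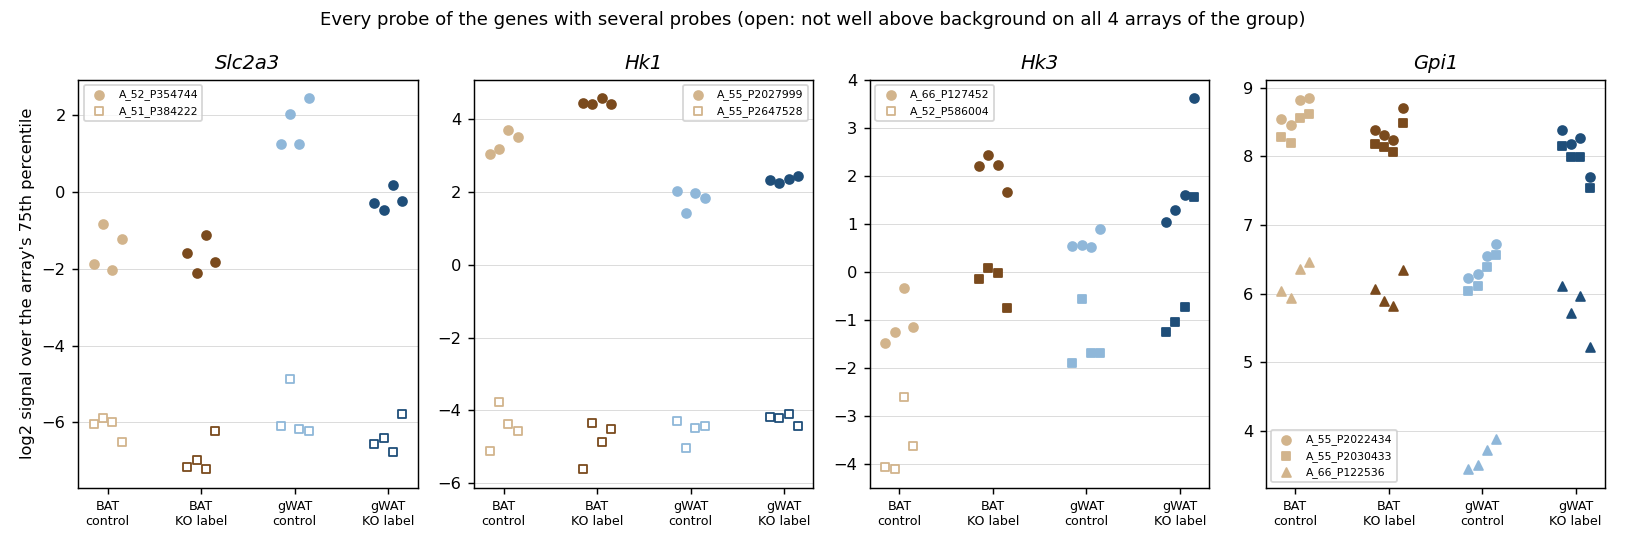
Log2 signal over the 75th percentile for every probe of the 4 genes with several probes, with 4 arrays per group; open symbols mark a probe not well above background on all 4 arrays of that group. The 3 Gpi1 probes and both Hk3 probes change in the same direction, while the lower probes of Slc2a3 and Hk1 stay near background.

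Each tissue had 1 slide with both labels, holding 4 KO arrays and 1 control of that tissue. With slide as a block the genotype change is that between these arrays, and the lone control is assumed to vary like the others. This control was the highest of its group for Slc2a1 (0.91) and Slc2a4 (7.66) in BAT. The same held for Slc2a3 (2.45) and Gpi1 (6.72) in gWAT. A high control widens a fall and narrows a rise. Within its slide, the BAT change was 0.78 for Slc2a1, -0.59 for Slc2a4, 0.94 for Hk1 and 3.28 for Hk3, each past the threshold with slide as a block. The gWAT change within its slide was -2.64 for Slc2a3, 0.51 for Hk1 and 1.41 for Gpi1, of which Slc2a3 alone passed with slide as a block.

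Brown fat markers moved with the gWAT label. The mean of 8 brown fat genes spanned -0.53 to -0.01 in gWAT controls against 1.22 to 3.07 where gWAT was labelled KO. Of 6 tested genes 5 rose and none fell, beside 9.99% and 7.85% of all genes. Of the 8, 5 were well above background on all 4 gWAT control arrays and 6 on all 4 labelled KO. Ucp1 and Dio2 entered the mean but were not tested there. Ppargc1a was not among those that rose, with means of -0.57 in controls and -1.09 where the label was KO. The defining marker Ucp1 was above background on 0 of 4 gWAT control arrays and 3 of 4 arrays labelled KO, at most -0.15 there, against at least 8.26 on every BAT array. In BAT the same list fell, with 7 of 8 genes lower in KO mice, and the adipocyte list too, with 7 of 8 lower, beside 34.0% of all genes. All 8 adipocyte markers cleared background on each of the 16 arrays. In BAT of KO mice all 6 stromal markers were higher, beside 27.5% of all genes. Dpp4, among the 6, was well above background on 3 of 4 BAT control arrays and entered the fit only through the KO arrays. Under the other scalings the median of each of these BAT lists kept its sign, with between 4 and 7 brown fat genes lower. Whether any of these tissue changes had a part in the member values was not tested.

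The depot difference was then read in each genotype. Between control BAT and control gWAT all 7 members differed: Gpi1, Hk1, Hk2 and Slc2a4 were higher in BAT, and Slc2a3, Hk3 and Slc2a1 lower. Over all 14304 genes tested, 37.0% were higher and 30.7% lower in BAT. The largest difference was that of Slc2a3, -3.24 (limma, SE 0.31, adjusted p = 3.76e-07), which is 9.43 times as much signal in gWAT. Gpi1 was higher in BAT by 2.22 (SE 0.17, adjusted p = 3.16e-08), Hk1 by 1.55 (SE 0.15), Hk2 by 1.38 (SE 0.23) and Slc2a4 by 1.04 (SE 0.21). Hk3 was lower in BAT by 1.68 (SE 0.43, adjusted p = 0.00303). Slc2a4 did not pass after quantile normalization (0.27, adjusted p = 0.153) and Hk3 did not with slide as a block (-1.69, adjusted p = 0.0776), and over the settings tried 5 to 7 members passed. The lower level of Slc2a1 in BAT, given above, did not pass with Actb and Rplp0 as the scale (-0.083, adjusted p = 0.681) or with slide as a block (-0.31, adjusted p = 0.291).

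Between the KO arrays of both depots, 4 of 7 members differed: Hk1, Hk2 and Slc2a1 were higher and Slc2a3 lower in BAT, where 23.4% of 14449 genes were higher and 22.9% lower. Hk1 was higher in BAT by 2.11 (limma, SE 0.15, adjusted p = 1.37e-07) and Hk2 by 0.84 (SE 0.24, adjusted p = 0.00924). Slc2a3 differed by -1.46 (SE 0.31, adjusted p = 0.00162). All BAT KO arrays were on the second slide and all gWAT arrays labelled KO on the last, scanned on another day. With slide as a block, Hk1 alone of the 7 passed, with Hk2 at 0.68 (adjusted p = 0.375) and Slc2a3 at -0.53 (adjusted p = 0.565), and scan day as a block likewise left 1 member. Gpi1 stood at 8.41 ± 0.20 (SD, n = 4) in BAT of KO mice and 8.13 ± 0.30 (SD, n = 4) in gWAT labelled KO, a difference of 0.27 (95% interval -0.08 to 0.63, limma, adjusted p = 0.195). Hk3 differed by 0.25 (95% interval -0.68 to 1.17, adjusted p = 0.664) and Slc2a4 by 0.41 (95% interval -0.05 to 0.87, adjusted p = 0.132).

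From lowest to highest mean, the 4 groups ran BAT control, gWAT labelled KO, gWAT control and BAT KO for Slc2a1, where each of the upper 3 groups overlapped its neighbour. Slc2a3 ran BAT KO, BAT control, gWAT labelled KO and gWAT control, with overlap of the BAT groups. For Slc2a4, Hk1, Hk2 and Gpi1 the lowest group was gWAT control. Hk1 then ran gWAT labelled KO, BAT control and BAT KO, with no overlap between any neighbours, while Slc2a4, Hk2 and Gpi1 ran gWAT labelled KO, BAT KO and BAT control. For Slc2a4 and Hk2 all neighbours overlapped, and for Gpi1 all but gWAT control. Hk3 ran BAT control, gWAT control, gWAT labelled KO and BAT KO, and its highest groups overlapped.

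The promoters of the members that moved together in BAT are shown beside that of Hk2, which did not pass there, so that the start regions of the 3 hexokinases and of the basal carrier can be read side by side. RefSeq on GRCm38.p6 gave 6 start windows for 5 of the 7 members, and Slc2a3 and Slc2a4 were not matched. For Gpi1 the motif counts alone are given. For the other 5 windows the 250 bases before the start are printed 5′ to 3′ on the strand of the gene: Slc2a1 at chr4:119108495-119108744 (plus strand), the upstream Hk1 start at chr10:62379909-62380158 and the downstream Hk1 start at chr10:62340422-62340671 (minus strand), Hk2 at chr6:82774455-82774704 (minus strand) and Hk3 at chr13:55021386-55021635 (minus strand). Capitals mark ACGTG, the core of the hypoxia response element, on either strand, so that CACGT marks the same core on the other strand.
Slc2a1: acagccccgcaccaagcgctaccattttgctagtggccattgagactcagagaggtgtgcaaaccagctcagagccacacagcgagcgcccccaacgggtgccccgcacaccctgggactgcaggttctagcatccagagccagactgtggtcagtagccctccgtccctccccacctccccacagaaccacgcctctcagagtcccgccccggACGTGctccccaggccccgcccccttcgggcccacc
Hk1 upstream start: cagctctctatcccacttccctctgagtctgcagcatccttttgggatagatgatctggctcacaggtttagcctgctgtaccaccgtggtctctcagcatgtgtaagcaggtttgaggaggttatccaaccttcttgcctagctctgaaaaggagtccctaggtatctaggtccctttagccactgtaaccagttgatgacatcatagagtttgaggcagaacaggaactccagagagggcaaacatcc
Hk1 downstream start: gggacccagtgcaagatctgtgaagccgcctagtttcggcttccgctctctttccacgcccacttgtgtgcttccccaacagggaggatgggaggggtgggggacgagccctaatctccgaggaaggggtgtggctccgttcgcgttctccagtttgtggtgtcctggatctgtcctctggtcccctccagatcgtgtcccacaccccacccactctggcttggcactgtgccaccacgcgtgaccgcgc
Hk2: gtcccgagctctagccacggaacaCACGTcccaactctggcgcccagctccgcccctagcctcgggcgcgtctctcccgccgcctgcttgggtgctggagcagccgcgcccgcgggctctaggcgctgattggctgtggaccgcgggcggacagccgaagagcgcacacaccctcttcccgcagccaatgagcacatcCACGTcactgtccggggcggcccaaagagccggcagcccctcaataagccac
Hk3: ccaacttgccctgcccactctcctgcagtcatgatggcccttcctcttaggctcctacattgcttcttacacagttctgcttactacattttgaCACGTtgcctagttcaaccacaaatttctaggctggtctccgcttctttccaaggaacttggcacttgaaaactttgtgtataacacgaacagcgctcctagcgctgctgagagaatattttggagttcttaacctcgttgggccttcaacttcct
The core occurred 1 time before Slc2a1, 2 times before Hk2, 1 time before Hk3 and at neither Hk1 start nor before Gpi1, and 16.6% of all 32851 start windows of this length held it on either strand. The GC box GGGCGG, on either strand, occurred 2 times before Slc2a1, 3 times before Hk2 and 2 times before Gpi1, and in 32.7% of all windows. GAGGAA, a core letter run of sites for the myeloid factor PU.1, occurred 1 time before Hk3 and 1 time at the downstream Hk1 start, and in 23.3% of all windows. The GC content was 66.4% before Slc2a1, 69.6% before Hk2 and 47.2% before Hk3, beside a median of 52.4%. It was 49.6% at the upstream and 62.8% at the downstream Hk1 start, and which start gives the transcript that the bright Hk1 probe reads was not analysed here. A match is a description of these letters, and the 3 members that rose in BAT did not share a match for any of the 3 motifs.

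Of 11 further glucose and hexose carriers, 7 could be tested in each tissue. In BAT 2 rose, 2 fell and 3 did not pass, where 27.5% of all genes rose and 34.0% fell. In gWAT 1 rose, 2 fell and 4 did not pass, where 9.99% of all genes rose and 7.85% fell. The median log2 change was 0.08 in BAT and -0.43 in gWAT. The BAT median ran from -0.51 with Actb and Rplp0 to 0.62 with spike-in scaling, while that of all genes ran from -0.67 to 0.45. Slc2a12, the GLUT12 carrier, fell by 2.42 in BAT (limma, SE 0.26, adjusted p = 7.64e-05) and fell by 3.26 in gWAT (SE 0.25, adjusted p = 0.000546). In gWAT, Slc2a5, the fructose carrier GLUT5, stood at -1.61 in controls and 2.97 in the arrays labelled KO, a rise of 4.58 (SE 0.27, adjusted p = 0.000213). It also rose in BAT, by 1.79 (limma, SE 0.58, adjusted p = 0.0255). Slc2a13, the proton-coupled inositol carrier, fell in gWAT by 1.83 (SE 0.21, adjusted p = 0.00242). In BAT, Slc2a6 cleared background on 1 control array and on every KO array, and entered the fit through the latter; it counts among the 2 that rose there, with means of -4.31 in controls and -1.72 in KO.

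Of 7 other enzymes and regulators of glucose phosphorylation and its reversal, few could be tested. In BAT 2 were tested, of which G6pc3, a ubiquitous glucose 6-phosphatase, was lower by 0.42 (limma, adjusted p = 0.0145) and Adpgk did not pass, both named after their values were seen. These calls depended on the scale, and none of the 2 passed after quantile normalization or normexp. With spike-in scaling 1 was higher and none lower, and with Actb and Rplp0 as the scale both were lower. The medians of all genes were 0.45 and -0.67 there. In gWAT 5 were tested and none passed, with a median log2 change of 0.36.

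The 15 genes of GLUT4 vesicle traffic were all tested. In BAT 2 rose and 8 fell, with a median log2 change of -0.31, where 27.5% of all genes rose and 34.0% fell with a median of -0.08. In gWAT none rose and 4 fell, with a median of 0.12, where 9.99% of all genes rose and 7.85% fell with a median of 0.05. With spike-in scaling the balance turned in both tissues, to 4 that rose and 1 that fell in BAT (median 0.22) and to 6 that rose and none that fell in gWAT (median 0.47). That scaling moved all genes alike, to medians of 0.45 in BAT and 0.40 in gWAT, so that the list still lay below all genes in BAT. With median centring none of the 15 passed in gWAT (median 0.24, beside 0.17 over all genes). The gWAT calls of Sort1 and Vamp2, given next, were thus lost there. Sort1, the sorting receptor of GLUT4 vesicles, fell in BAT from 5.21 to 3.79 (limma, adjusted p = 3.78e-05) and in gWAT from 5.74 to 5.11 (adjusted p = 0.0286). Vamp2, the vesicle SNARE, was lower by 0.95 in BAT and by 0.57 in gWAT on the log2 scale (limma, adjusted p = 0.000123 and 0.0132). Sort1 and Vamp2 were chosen after their values were seen. The same holds for Tbc1d4, the Akt substrate that holds these vesicles inside, which was lower by 0.50 in BAT (limma, adjusted p = 0.00153) and did not pass in gWAT (adjusted p = 0.205). The 2 that rose in BAT were Stxbp3, a syntaxin-binding protein, by 0.50 (limma, adjusted p = 0.00629), and Tbc1d1, a relative of Tbc1d4, by 0.46 (adjusted p = 0.0123), and neither passed in gWAT.

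Among 9 genes of glucose sensing, 2 rose and 2 fell in BAT, beside 27.5% and 34.0% of all genes. In gWAT 4 rose and none fell, beside 9.99% and 7.85% of all genes. The medians were -0.01 in BAT and 0.17 in gWAT, beside -0.08 and 0.05 over all genes tested. The BAT median ran from -0.60 with Actb and Rplp0 to 0.53 with spike-in scaling, while that of all genes ran from -0.67 to 0.45. Txnip, an arrestin that restrains glucose uptake and is a target of the sensor ChREBP, did not pass in BAT (-0.29, limma, adjusted p = 0.250) or gWAT (0.17, adjusted p = 0.718). Klf15, a transcription factor known to act on Slc2a4, fell in BAT by 1.95 (limma, SE 0.36, adjusted p = 0.00153) and did not pass in gWAT (-0.68, adjusted p = 0.120). Arrdc4, an arrestin like Txnip and picked after its values were seen, rose in both tissues, by 2.05 in BAT (limma, adjusted p = 2.50e-05) and by 1.78 in gWAT (adjusted p = 0.00698). Mlxipl, which encodes ChREBP and was picked likewise, rose in gWAT by 1.53 (limma, adjusted p = 0.00384), with 0.20 in BAT (adjusted p = 0.426).

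The glycolytic enzymes below Gpi1 were mostly lower in BAT and higher in gWAT. Of 16 tested in BAT, 2 rose and 11 fell, with a median log2 change of -0.80, beside 27.5% and 34.0% of all genes. Of 17 tested in gWAT 9 rose and none fell, with a median of 0.91, beside 9.99% and 7.85% of all genes. The BAT counts were 3 and 5 after quantile normalization (median -0.14) and 4 and 5 with spike-in scaling (median -0.26), while in gWAT at least 9 rose and none fell under every scaling. Gpi1, directly above them, did not pass in BAT and rose by 1.69 in gWAT. Aldoc, an aldolase best known from brain, rose in BAT by 3.65 (limma, SE 0.30, adjusted p = 2.40e-05). Pkm, the pyruvate kinase of muscle and proliferating cells, rose in gWAT by 2.18 (SE 0.26, adjusted p = 0.00266) and was lower in BAT by 0.90 (adjusted p = 0.000560). Pgam1, the targeted gene, was lower in BAT by 1.74 (adjusted p = 1.11e-05) and higher in gWAT labelled KO by 0.95 (adjusted p = 0.0139). It is on this list, so it counts among those that fell in BAT and those that rose in gWAT.

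**Figure D5:**
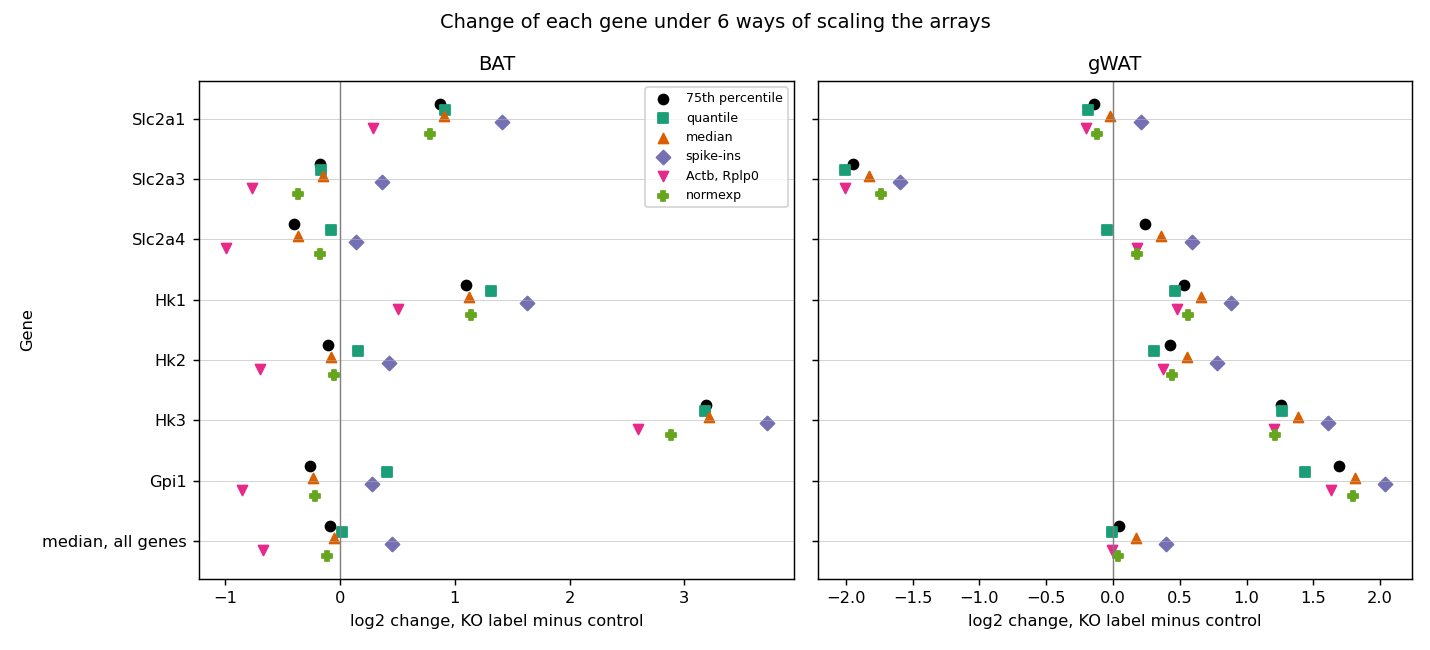
Log2 change of each gene, arrays labelled KO minus controls, in BAT (left) and gWAT (right) under 6 ways of scaling the arrays, with the median of all genes tested in the last row. The BAT changes of Slc2a4, Hk2 and Gpi1 lie on both sides of 0, and those of Slc2a1, Hk1 and Hk3 lie above 0 in all 6.

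Across the 16 arrays, the genes whose levels followed a member most closely were named from 14794 other genes well above background. These correlations are descriptions over arrays that share 2 tissues, 2 labels and 3 slides. For Hk3 they were Slc11a1, Itgb2 and Ctss (Pearson r = 0.993, 0.991 and 0.986), of which Itgb2 encodes the leukocyte beta 2 integrin. For Gpi1 they were Pdhb, a subunit of pyruvate dehydrogenase, with r = 0.993, then Gm8709 and 3000002C10Rik with r = 0.984 and 0.983. Slc2a3 was followed by Asph, Tmem159 and Gulp1 (r = 0.972, 0.967 and 0.966), and Slc2a4 by Sacm1l, Trappc13 and Dnm1l (r = 0.965, 0.953 and 0.947). Hk1 was followed by Zdhhc23, Tex30 and Rrm1 (r = 0.960, 0.955 and 0.954), and Hk2 by Lzic, Taf3 and Tmem161b (r = 0.964, 0.964 and 0.962). The closest genes to Slc2a1 were Nop56, Cpne7 and Cst7, at lower values (r = 0.920, 0.916 and 0.887). Among the members themselves, r was highest between Slc2a4 and Hk2 (0.878) and lowest between Slc2a3 and Gpi1 (-0.895).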

How the data were processed

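Total RNA of BAT and gWAT was labelled with Cy3 (100 ng per array in the labels, whereas the methods of the study give another amount) and hybridized to 1-colour Agilent arrays. The authors deposited, per the file headers, the intensity of each spot after background subtraction by Agilent Feature Extraction 10.7.1.1, and a table of normalized values, a linear ratio that differed by under 0.01 (log2, median per array) from the intensity over the array's 75th percentile; it served as an alternative. Here, log2 intensity minus the log2 75th percentile over non-control probes was used. No spot was saturated. Irregular spots were left out and spots of a probe averaged. Probes were named through RefSeq accessions (32994 of 35886 matched), and the brightest probe stood for its gene. Tests covered genes that cleared background on all 4 arrays of a compared group; a list's untested genes have no part in its counts. limma 3.58.1 (R 4.3.3) was fitted to the 8 arrays of a tissue for genotype and to all 16 for the interaction and the depots, with Benjamini-Hochberg adjustment over all genes and a threshold of 0.05. Single probes were compared by two-sided exact permutation tests (scipy 1.17.1), whose smallest p for 4 against 4 is 0.0286.

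Named were all members with every probe, from the other lists the 2 largest falls and rises past the threshold in each tissue plus Pgam1 and Txnip, and the 3 genes most correlated with each member; other list genes named (Sort1, Vamp2, Tbc1d4, Tbc1d1, Stxbp3, Arrdc4, Mlxipl, G6pc3 and Adpgk) were picked after their values were seen. The members, lists and tests were chosen with earlier results of these data known. Alternatives were quantile normalization, median centring, spike-in scaling, Actb and Rplp0 scaling, normexp (offset 50, on the median spot signal, as the files give no mean), the deposited table, other filters, the mean of a gene's probes, slide and scan day as blocks, a replicate block, the methods' t-test and leaving out arrays. Data were simulated with 200 genes changed, normal noise and no slide effect. On simulated data for BAT (14270 genes), limma recovered 64% of changes of 1 and 92% of changes of 2 on the log2 scale, and for gWAT (14135 genes) 55% and 89%. In the measured data 61.5% of genes passed in BAT and 17.8% in gWAT, so these rates need not hold for the tests above. For arrays, their number limits the precision.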

Additional observations from a re-analysis of the deposited data

Results flagged for a closer look

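The response to the genotype label differed between the depots by the interaction test for Slc2a1 (-1.02 on the log2 scale, change in gWAT minus change in BAT), Slc2a3 (-1.77), Hk1 (-0.56), Hk3 (-1.92) and Gpi1 (1.95). Of all genes tested 48.3% passed this test. The calls of Slc2a1, Hk1 and Hk3 were lost in some of the alternative fits given above, and Hk1 was at -0.031 with Actb and Rplp0 scaling. Within groups of 4 arrays, 4 of 48 probe and group combinations held an array far from the other 3, where chance alone marks about 5%. The Slc2a3 probe A_51_P384222, not above background, read -4.88 on gWAT control replicate 2. Hk1 probe A_55_P2027999 read 4.57 on BAT KO replicate 3, in a group with a range of 0.16. Hk3 probe A_52_P586004 read -0.55 on gWAT control replicate 2, and Hk3 probe A_66_P127452 read 0.89 on gWAT control replicate 4. The 2 Hk3 probes thus marked different arrays.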

How the results depend on the processing

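The BAT changes of Hk1 and Hk3 and the gWAT change of Slc2a3 kept their direction and passed the test in every fit that was tested. The Slc2a1 rise in BAT kept its direction in all and lost its call with Actb and Rplp0 scaling (0.29). Each log2 change given here is KO label minus control. Spike-in scaling moved the median of all genes to 0.45 in BAT and 0.40 in gWAT, and turned Slc2a3 (0.36), Slc2a4 (0.14), Hk2 (0.43) and Gpi1 (0.28) in BAT and Slc2a1 (0.21) in gWAT. It also brought Slc2a4 (0.59) and Hk2 (0.78) in gWAT past the threshold. Quantile normalization gave -0.072 for Slc2a4, 0.16 for Hk2 and 0.42 for Gpi1 in BAT, and -0.042 for Slc2a4 and 0.46 for Hk1 in gWAT. Actb and Rplp0 scaling gave -0.70 for Hk2 and -0.85 for Gpi1 in BAT, both past the threshold, and 0.48 for Hk1 in gWAT, not past it. Under that scaling the median of all genes in BAT was -0.67. The Slc2a4 fall in BAT lost its call with median centring (-0.37), normexp (-0.17) and, at an unmoved -0.40, with all 16 arrays in 1 fit. Slide as a fixed block left 0.51 for Hk1 and 1.41 for Gpi1 in gWAT, neither past the threshold, and gave 0.033 for Hk2 in BAT and -0.054 for Slc2a4 in gWAT. Within the slide that holds both genotypes, 4 arrays against 1, Slc2a4 in BAT was -0.59, Slc2a3 in gWAT -2.64 and Gpi1 in gWAT 1.41. Hk1 in gWAT, unmoved at 0.53, lost its call without a filter on dim probes and with the methods' t-test after adjustment, and Hk3 in gWAT, unmoved at 1.26, gained it with all 16 arrays in 1 fit. The cause of these shifts was not tested.

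In gWAT, 3 members passed, 5 with spike-in scaling and 1 with slide as a fixed block. The 2525 genes past the threshold in gWAT became 1388 with median centring, 5160 with spike-in scaling, 1138 without the filter, 4040 with all 16 arrays, 184 with slide as a block, and 1618 (adjusted) or 4673 (unadjusted) with the methods' t-test. Leaving out 1 array gave 1080 to 3212 such genes in gWAT. It gave -0.35 to 0.045 for Slc2a3, -0.49 to -0.33 for Slc2a4, -0.19 to 0.00083 for Hk2 and -0.35 to -0.20 for Gpi1 in BAT, and 0.40 to 0.61 for Hk1 and 0.68 to 1.54 for Hk3 in gWAT. The difference of Hk3 between the KO arrays of the depots ran from -0.038 to 0.82.

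With the replicate number as a replicate block, Slc2a4 in BAT (-0.40, adjusted p = 0.0534) and Hk1 in gWAT (0.53, adjusted p = 0.0931) lost their calls, and 1087 genes passed in gWAT. Deviations of same-numbered arrays correlated between -0.01 and 0.17 in BAT and between -0.12 and 0.51 in gWAT. For differently numbered arrays the ranges were -0.21 to 0.12 in BAT and -0.44 to 0.37 in gWAT. With so few pairs, it cannot be told whether same-numbered arrays share more than a number. Between the depots, same-numbered arrays correlated between -0.12 and 0.25 in KO and between -0.038 and 0.17 in controls. Of these pairs 2 of 4 lay over 0.1 in each genotype, beside 1 of 12 differently numbered pairs. Whether same-numbered BAT and gWAT arrays came from the same mouse is not given in the sources used here. The replicate block changed no member's call in the depot and interaction tests. Of the scan days, the first held every BAT array, so scan day gave no term there.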
